A study of Danio rerio with 18 samples.

Results

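Zebrafish larvae replace their retinal pigment epithelium (RPE) after it is destroyed, and the change in the sorted cells between 2 and 7 days after injury (dpi) is described here from 6 RNA-seq libraries of 18 in the series. These are the 3 libraries from metronidazole-treated larvae (MTZ+) at 7 dpi, set against the 3 MTZ+ libraries at 2 dpi. The libraries were taken by treatment and time label alone. MTZ+ larvae had bathed for 24 h in 10 mM metronidazole, up to 6 days after fertilisation, to ablate the RPE. MTZ- larvae of the same ages received no drug, so drug and ablation cannot be told apart. Both kinds had been kept in 1.5X phenylthiourea, which blocks pigment formation, from 0.25 to 5 days after fertilisation. At most 1000 eGFP-positive cells from dissociated eyes were sorted into each library, and the labels used here do not name the promoter of the transgene. The other libraries were 3 each of MTZ+ at 4 dpi and MTZ- at 2, 4 and 7 dpi. The library labelled MTZ- 4 dpi replicate 1 has a title that reads Mtz positive, and the treatment labels were followed. Whether replicates are separate clutches is not stated, so p-values measure the spread between these libraries, which may be technical.

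The RPE is a single pigmented sheet behind the photoreceptors. It regenerates the visual chromophore through enzymes such as RPE65, takes up shed outer segments, moves nutrients and ions between blood and retina, and seals the retina with tight junctions. Larval zebrafish rebuild it from the surviving peripheral RPE, which proliferates and migrates into the lesion, whereas mammalian RPE regenerates poorly. Between 2 and 7 dpi the larvae also grow older by as many days. The same comparison in MTZ- larvae covers that growth in cells that were not ablated, together with time since phenylthiourea was removed. Library dates differ as well, as given below, so these parts cannot be told apart.

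The sorted cells carried the markers of RPE at both times. Counts scaled to library size by the TMM method (CPM), summed over 15 RPE markers, were 99800, 87400 and 50400 at MTZ+ 7 dpi, against 78400, 69500 and 66100 at MTZ+ 2 dpi. Total counts were 21870245 to 36503024 in MTZ+ 7 dpi libraries and 28885808 to 35152187 in MTZ+ 2 dpi libraries. The share of counts on the mitochondrial genome was 11% ± 0.723 at MTZ+ 7 dpi and 7.94% ± 3.14 at MTZ+ 2 dpi (SD, n = 3 each; exact permutation test, two-sided p = 0.1, the smallest that 3 against 3 allows). Replicates correlated less at MTZ+ 7 dpi (Pearson r across genes 0.779 to 0.841) than at MTZ+ 2 dpi (0.891 to 0.941). The MTZ+ 2 dpi replicates 2 and 3 stood apart in their TMM factors, 0.7808 and 0.6917, against 0.9129 to 1.157 in the other 4 ablated libraries, and MTZ- 2 dpi replicates 2 and 3 had 0.7609 and 0.6368. The library names of replicates 2 and 3 of both MTZ+ and MTZ- 2 dpi share a date that no 7 dpi library carries. Time and whatever that date marks cannot be told apart for them.

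At 7 dpi genes of ribosome assembly, the proteasome and mitochondrial respiration were lower in the sorted cells than at 2 dpi, with the cytokine genes *il11b* and *clcf1*, and several clock, transport and eye transcription factor genes were higher. Of 20093 genes tested, 556 rose (2.77%) and 800 fell (3.98%), together 1356 or 6.75%, at an adjusted p under 0.05 in edgeR's quasi-likelihood test over all 18 libraries. The libraries of the 2 groups did not overlap for 95% of the rises and 91.8% of the falls. Over all genes tested, 10.6% were without overlap on the higher side at 7 dpi and 11.1% on the lower side. These counts lean on the spread shared by all 18 libraries: a fit of the 6 ablated libraries alone called 3 genes, 1 of them higher, with 3066 genes at an unadjusted p under 0.05. Without MTZ+ 2 dpi replicate 2 or 3 the count was 443 or 475, and without MTZ+ 7 dpi replicate 1 or 3 it was 627 or 636. The share of calls that were rises also moved, to 27.8% without MTZ+ 2 dpi replicate 1 and to 28.6% of 1051 calls in limma-voom, beside 41% here. The 4 dpi libraries, taken as labelled, were compared for the called genes only. The mean at MTZ+ 4 dpi lay between the means at 2 and 7 dpi for 90.1% of the rises and 67.4% of the falls. For 255 of the falls it lay beyond the 7 dpi mean. The median share of the log2 distance covered at 4 dpi was 68.4% for rises and 93.2% for falls. These genes were picked for their difference between 2 and 7 dpi, which favours a 4 dpi mean in between. No share over all genes was computed, so these values do not show when the change took place.

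Among the gene lists, which were written with earlier results of these data known, ribosome biogenesis gave the clearest difference between regenerating and undisturbed cells. Its genes encode the factors that transcribe, process and assemble ribosomal RNA in the nucleolus, and growing cells need them most. Summed CPM over the 56 genes were 1480, 2220 and 3930 at MTZ+ 7 dpi, against 9060, 7990 and 8570 at MTZ+ 2 dpi. All 3 libraries at 7 dpi were far below all 3 at 2 dpi (exact permutation test, two-sided p = 0.1). In MTZ- larvae the sums were 1400, 2280 and 3590 at 7 dpi and 1260, 1770 and 2310 at 2 dpi, so MTZ+ 2 dpi stood alone among these groups. At MTZ+ 4 dpi the sums were already 2790, 2570 and 2590. Of the 56 genes tested, 20 fell (35.7%, beside 3.98% of all genes) and 39 were lower at an unadjusted p under 0.05. The median log2 change was -1.57 in MTZ+ larvae, beside 0.11 over all genes, and 0.94 in MTZ- larvae.

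Genes of ribosomal RNA transcription and of both subunits were among the falls. *mrto4* (chr11:41233822-41241747, minus strand, GRCz10), a large-subunit assembly factor outside the list, had 27.1, 47.4 and 56.5 CPM at MTZ+ 7 dpi, against 416, 517 and 356 CPM at MTZ+ 2 dpi. It fell by 3.30 on the log2 scale (SE 0.56, edgeR adjusted p = 0.00565). In MTZ- larvae it lay between 16.2 and 72.7 CPM at 7 dpi and between 21.9 and 53.7 CPM at 2 dpi, so the high values were those of MTZ+ 2 dpi alone. *polr1e* (chr1:18944375-18955290, minus strand), a subunit of RNA polymerase I, had 9.81, 14.8 and 20.2 CPM at MTZ+ 7 dpi, against 98.2, 118 and 78.5 CPM at MTZ+ 2 dpi. The fall was 2.72 on the log2 scale (SE 0.49, edgeR adjusted p = 0.00762), and the fitted change in MTZ- larvae was -0.40. The small-subunit processome gene *imp3*, the box H/ACA gene *nhp2* and the methyltransferase gene *emg1* fell by 2.56, 2.73 and 2.35 on the log2 scale (edgeR adjusted p = 0.00543, 0.00807 and 0.00915). *ncl*, the nucleolar protein nucleolin, had 117, 134 and 231 CPM at MTZ+ 7 dpi, against 317, 333 and 399.8 CPM at MTZ+ 2 dpi, and did not pass (edgeR adjusted p = 0.0983). In MTZ- larvae *ncl* rose, with 129, 316 and 345 CPM at 7 dpi and 70.2, 90.1 and 100.03 CPM at 2 dpi (log2 change 1.60, edgeR adjusted p = 0.0401).

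Calls in this list depended on single libraries, while its direction did not. The number that fell was 4 without MTZ+ 7 dpi replicate 1, 8 without its replicate 2, and 11 and 12 without MTZ+ 2 dpi replicates 2 and 3, and DESeq2 and the fit with replicate numbers as a block called 30 each. The median log2 change stayed between -2.01 and -1.19 when any 1 of the 6 ablated libraries was left out. Against all genes these transcripts were of ordinary length, with a median exon length of 1.04 times that of the median gene.

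**Figure D1:**
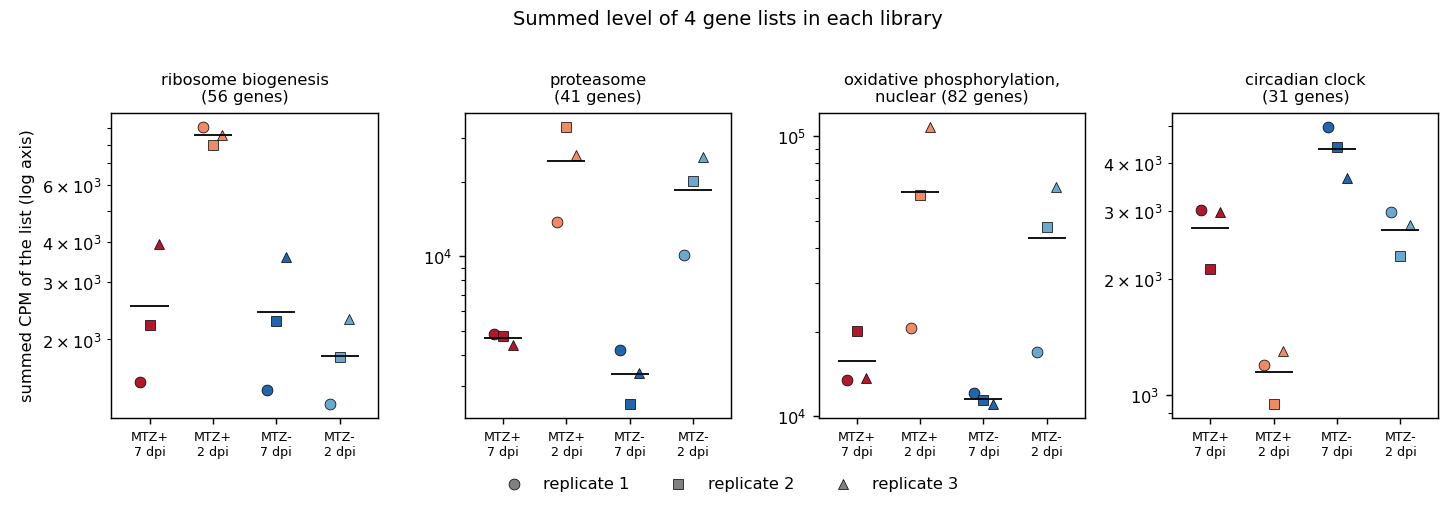
Summed CPM (log axis) of 4 gene lists in each library of the 4 groups at 7 and 2 dpi; symbols are replicates and bars are group means. Ribosome biogenesis is high in MTZ+ 2 dpi libraries alone (7990 to 9060), whereas proteasome and oxidative phosphorylation genes are high at 2 dpi in both MTZ+ and MTZ- larvae, and clock genes are higher at 7 dpi in both.

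The difference between the change in MTZ+ larvae and the change in MTZ- larvae was tested gene by gene. Without regard to pairing, edgeR called 0 genes (0%; lowest adjusted p = 0.291), with 2060 genes (10.3%) at an unadjusted p under 0.05; DESeq2 called 290 and limma-voom 0. MTZ+ and MTZ- libraries of the same time and replicate number deviated together, and with these 9 pairs as a replicate block edgeR called 862 genes, 389 (1.94%) with the more positive and 473 (2.35%) with the more negative change in MTZ+ larvae. The blocked count fell to 122, 266 and 297 without 1 of the 2 dpi pairs, and to 529 and 456 without the replicate 1 or replicate 3 pair of 7 dpi. Of the ribosome biogenesis genes 43 of 56 were among the negative calls, and 9 to 41 when 1 pair was left out, the lowest without the replicate 1 pair of 2 dpi. *mrto4* differed by -3.36 in the blocked fit (SE 0.53, edgeR adjusted p = 0.0119) and *ncl* by -2.67 (SE 0.35, edgeR adjusted p = 0.00728). *tfb2m*, a mitochondrial transcription factor, had 15.5, 31.8 and 28.1 CPM at MTZ+ 7 dpi, against 92.5, 66.1 and 36.2 CPM at MTZ+ 2 dpi, and its changes differed by -2.82 (SE 0.44, edgeR adjusted p = 0.0112 with the block). *rbms1a*, an RNA-binding protein gene, had 3.39 to 9.47 CPM at MTZ+ 7 dpi, against 29.2 to 32.3 CPM at MTZ+ 2 dpi, and *zbtb21*, a zinc finger repressor gene, had 2.69 to 5.09 CPM, against 12.1 to 20.1 CPM. The changes of *rbms1a* and *zbtb21* differed by -4.25 and -3.45 with the block (edgeR adjusted p = 0.0226 and 0.0134), and the test without it gave an adjusted p of 0.291 for each. The fall of *tfb2m* in MTZ+ larvae did not itself pass. MTZ- levels of *tfb2m*, *rbms1a* and *zbtb21* are not given here, so these differences do not show how much of each lay in MTZ+ larvae.

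**Figure D2:**
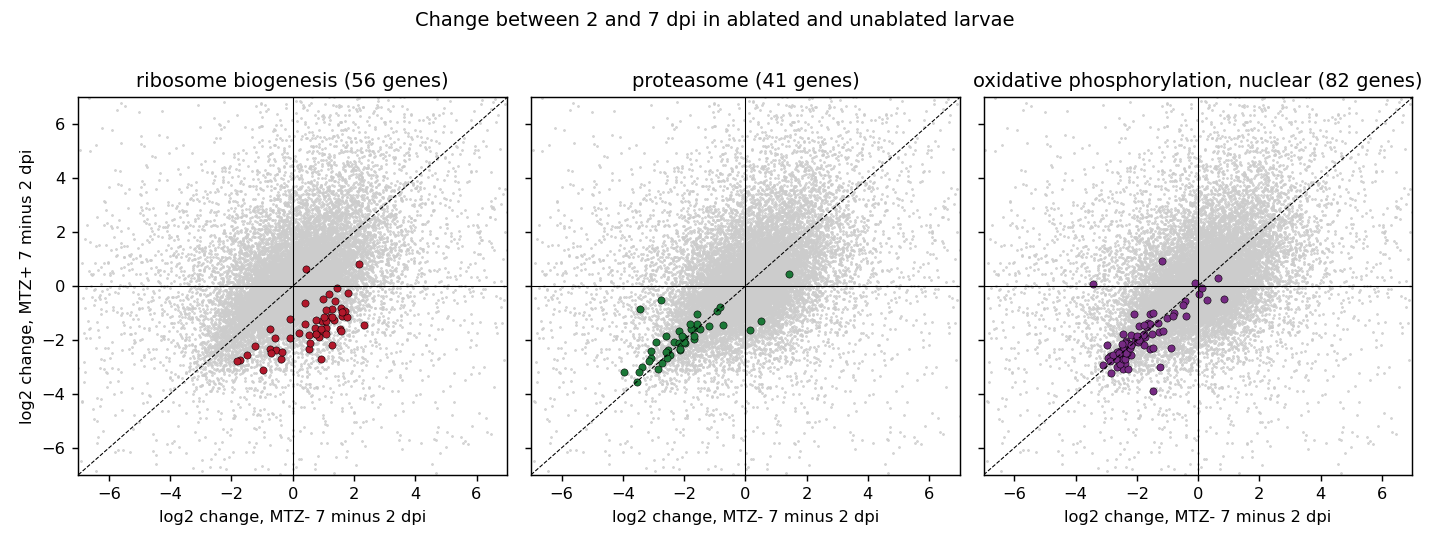
Fitted log2 change from 2 to 7 dpi in MTZ+ larvae (vertical) against that in MTZ- larvae (horizontal), with members of 3 lists coloured over all genes tested in grey; 419 genes beyond 7 on either axis, none of them members of the 3 lists, are not shown. All ribosome biogenesis genes but 1 lie below the dashed line of equal change, with medians of -1.57 in MTZ+ and 0.94 in MTZ- larvae, while proteasome and oxidative phosphorylation genes lie along it.

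A pair of interleukin-6 family cytokine genes and a growth factor gene fell between 2 and 7 dpi. *il11b* (chr19:10509147-10520900, minus strand), which encodes an interleukin-6 family cytokine, had 0.0711, 3.61 and 7.84 CPM at MTZ+ 7 dpi, against 91.5, 142 and 256 CPM at MTZ+ 2 dpi. In MTZ- larvae it was at 0 in 5 of the 6 libraries of 7 and 2 dpi and at 0.0984 CPM in the other. The fall was 5.41 on the log2 scale (SE 1.28, edgeR adjusted p = 0.0215), and at MTZ+ 4 dpi the level was 40.1, 14.2 and 11.8 CPM. The changes differed with the block (-8.71, SE 1.98, edgeR adjusted p = 0.0461). The size of that difference is uncertain, because it includes a fitted MTZ- change of 3.41 (SE 3.09) from values at or near 0. *clcf1*, a further ligand of that family, had 0.166, 0.251 and 0.0289 CPM at MTZ+ 7 dpi, against 8.03, 5.68 and 17.3 CPM at MTZ+ 2 dpi (log2 change -6.13, SE 1.67, edgeR adjusted p = 0.0362). For *clcf1* the difference of changes did not pass with the block (-7.17, SE 2.99, edgeR adjusted p = 0.224). In the list of interleukin-6 family and JAK/STAT genes these were the 2 that fell of 26 tested (7.69%, beside 3.98% of all genes). *stat5a*, a signal transducer, was the 1 that rose (3.85%, beside 2.77% of all genes). It had 4.71, 6.46 and 11.7 CPM at MTZ+ 7 dpi, against 0.524, 0.621 and 1.07 CPM at MTZ+ 2 dpi (log2 change 3.37, SE 0.69, edgeR adjusted p = 0.0101).

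Heparin-binding EGF-like growth factor, *hbegfa*, which is known to drive regeneration from Müller glia in zebrafish, had 31.8, 47.3 and 35.7 CPM at MTZ+ 7 dpi, against 123, 158 and 155 CPM at MTZ+ 2 dpi. It fell by 1.93 on the log2 scale (SE 0.50, edgeR adjusted p = 0.0284). This was the 1 call among 40 genes of the EGF receptor ligand, Wnt and Yap list (2.5%, below the 3.98% of all genes that fell). The 7 dpi level still lay above all 6 MTZ- libraries of 7 and 2 dpi, which had 4.35 to 21.1 CPM. In MTZ- larvae the log2 change of *hbegfa* was -1.11 (edgeR adjusted p = 0.2). The difference of changes did not pass with the block (-0.75, SE 0.54, edgeR adjusted p = 0.524). *saa*, the acute phase protein serum amyloid A, had 0, 0 and 0.145 CPM at MTZ+ 7 dpi, against 0.848, 6.52 and 24.6 CPM at MTZ+ 2 dpi (edgeR adjusted p = 0.0338). It was the 1 fall of 38 chemokine, cytokine and NF-kB genes (2.63%, below the 3.98% of all genes). The 2 rises in that list were *cxcr4b* and *nfkbie* (5.26%, beside 2.77% of all genes). The chemokine receptor gene *cxcr4b* had 6.66, 32.3 and 13.4 CPM at MTZ+ 7 dpi, against 0.0249, 0.0887 and 0 CPM at MTZ+ 2 dpi, a ratio of means of 403 with a counting interval of 138 to 1955 (95%, counting error only; edgeR adjusted p = 0.0175). In MTZ- larvae *cxcr4b* had 0.168, 9.32 and 3.38 CPM at 7 dpi and 2.12, 43.4 and 11.3 CPM at 2 dpi, and the difference of changes passed with the block (edgeR adjusted p = 0.0328). The neuropeptide gene *npy* had 0.426, 0.601 and 0.318 CPM at MTZ+ 7 dpi, against 26.3, 5.28 and 109 CPM at MTZ+ 2 dpi, and fell by 6.71 on the log2 scale (SE 1.59, edgeR adjusted p = 0.0188). For *saa* and *npy* the differences of changes did not pass with the block (edgeR adjusted p = 0.21 and 0.587).

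Falls in 3 stress lists, 5.26%, 4% and 5.36% of their genes, were near the 3.98% of all genes. The growth arrest genes *gadd45aa* and *gadd45bb* fell, 2 of 38 in the p53 list. *gadd45aa* had 9.36, 20.1 and 12.1 CPM at MTZ+ 7 dpi, against 42.3, 304 and 125 CPM at MTZ+ 2 dpi (log2 change -3.50, SE 0.62, edgeR adjusted p = 0.00702), and it also fell in MTZ- larvae by 2.61 (edgeR adjusted p = 0.0308). The mitochondrial chaperonin genes *hspd1* and *hspe1* fell, 2 of 50 immediate early and heat shock genes. *hspd1* had 19.3, 23.3 and 45.3 CPM at MTZ+ 7 dpi, against 151, 125 and 172 CPM at MTZ+ 2 dpi (log2 change -2.35, SE 0.62, edgeR adjusted p = 0.0319). Its change in MTZ- larvae was 1.12, and the difference of changes passed with the block (-3.22, SE 0.57, edgeR adjusted p = 0.0156). In the list of endoplasmic reticulum stress and amino acid response genes 3 of 56 fell, namely the autophagy gene *vmp1*, the secreted survival factor gene *manf* and the translocon gene *ssr3*, and 2 rose, the mTOR inhibitor gene *ddit4* and the cationic amino acid transporter gene *slc7a1*. *manf* had 25.2, 38.1 and 26 CPM at MTZ+ 7 dpi, against 109, 111 and 88.8 CPM at MTZ+ 2 dpi (edgeR adjusted p = 0.0149).

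**Figure D3:**
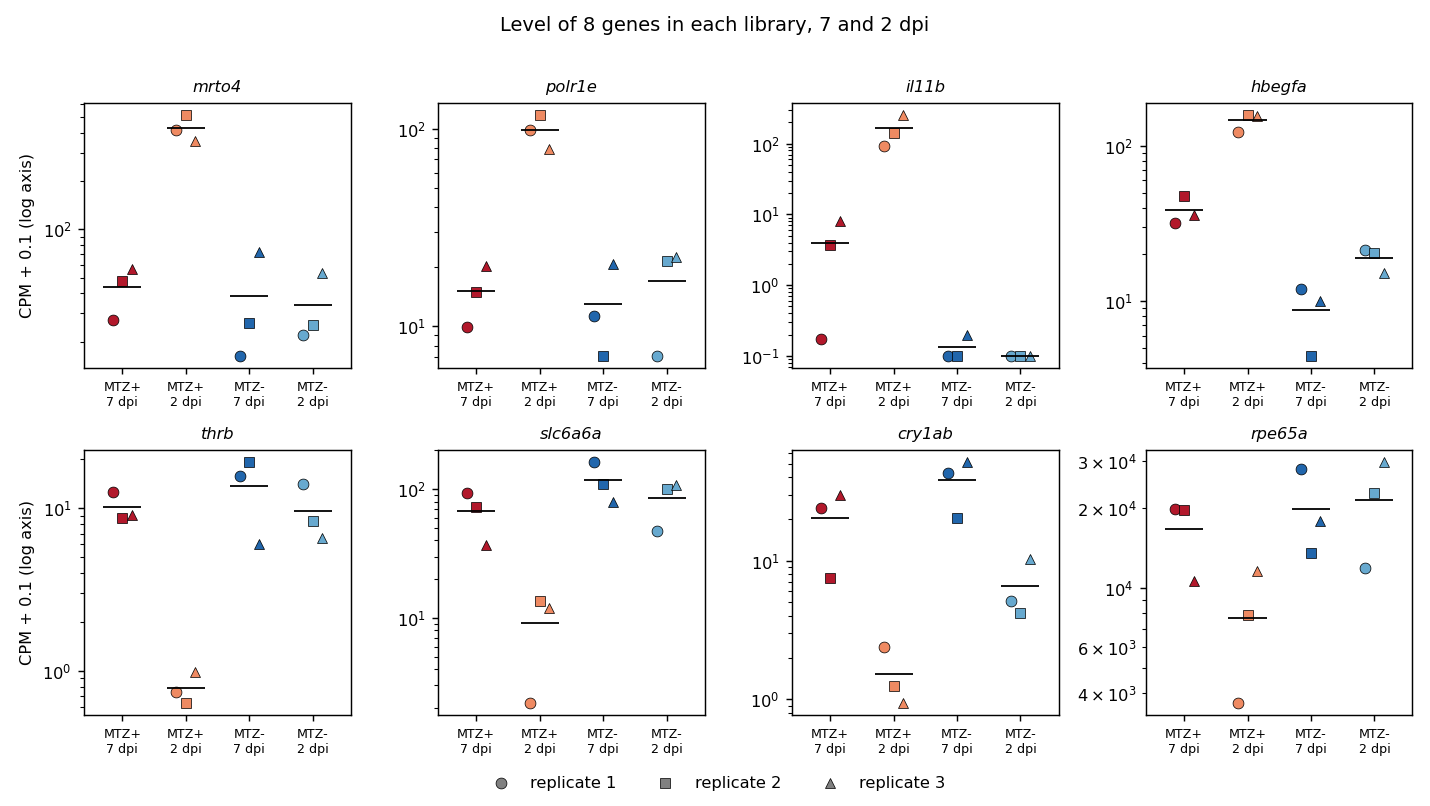
CPM plus 0.1 (log axis) of 8 genes in each library of the 4 groups at 7 and 2 dpi; symbols are replicates and bars are group means. *mrto4*, *polr1e*, *il11b* and *hbegfa* are highest in all 3 MTZ+ 2 dpi libraries, *thrb*, *slc6a6a* and *cry1ab* are lowest there, and *rpe65a* overlaps between MTZ+ 7 and 2 dpi.

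Proteasome and mitochondrial genes made up many of the falls, and they fell in undisturbed larvae as well. The proteasome degrades ubiquitin-tagged proteins, and 32 of its 41 genes tested fell (78%, beside 3.98% of all genes), with a median log2 change of -1.95. In MTZ- larvae 32 also fell, beside 2.71% of all genes there (and 1.15% that rose), with a median of -2.14. *psmb7*, a subunit of the catalytic core, had 266, 289.7 and 284 CPM at MTZ+ 7 dpi, against 1059, 5184 and 3582 CPM at MTZ+ 2 dpi (log2 change -3.55, SE 0.61, edgeR adjusted p = 0.00601). In MTZ- larvae it had 205, 129.6 and 149 CPM at 7 dpi, against 650.1, 2028 and 2996 CPM at 2 dpi, a log2 change of -3.55 as well. Among nuclear genes of oxidative phosphorylation 36 of 82 fell (43.9%), and 29 fell in MTZ- larvae, with a median of -2.14 in each. The MTZ- calls leaned on single libraries. Over all genes there were 776, but 2 and 0 without MTZ- 2 dpi replicates 2 and 3. The count was 2 and 1 without MTZ- 7 dpi replicates 2 and 3, and 1369 and 799 without replicate 1 of MTZ- 2 and 7 dpi. *ndufab1a*, an accessory protein of complex I, had 77.1, 104 and 99.1 CPM at MTZ+ 7 dpi, against 326, 812 and 1216 CPM at MTZ+ 2 dpi (log2 change -3.07, SE 0.50, edgeR adjusted p = 0.00521). The genes encoded on the mitochondrial genome did not follow: edgeR called 0 of 13, with 3 higher at an unadjusted p under 0.05, while DESeq2 and limma-voom each called 1 higher. A list of 73 mitochondrial ribosomal protein genes, put together after their values were seen, held 65 that fell in MTZ+ larvae and 25 in MTZ- larvae, with medians of -2.59 and -1.70.

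The 2 libraries that stood apart were high in these lists, and many of the genes that fell were short. Summed proteasome CPM were 4860, 4750 and 4400 at MTZ+ 7 dpi, against 13700, 33300 and 25600 at MTZ+ 2 dpi, so replicate 1 of 2 dpi also lay above all 3 libraries of 7 dpi. Summed CPM of oxidative phosphorylation genes were 13400, 20200 and 13700 at MTZ+ 7 dpi, against 20600, 61500 and 108000 at MTZ+ 2 dpi, where replicate 1 of 2 dpi was close to the highest 7 dpi library and replicates 2 and 3 were far above it. In MTZ- larvae the sums were 12100, 11400 and 11000 at 7 dpi, against 17000, 47500 and 65700 at 2 dpi, with the same replicates high. Relative exon length was taken from the ratio of count to TPM. Of the 800 falls 66.6% were among the shortest 25% of all genes tested, and of the 556 rises 8.81% did. The median length was 0.398 times that of the median gene for oxidative phosphorylation, 0.622 for proteasome and 0.44 for mitochondrial ribosomal protein genes. The shortest 25% of genes had a median log2 change of -0.47 in MTZ+ and -0.71 in MTZ- larvae, against 0.38 and 0.46 in the longest 25%. Among the shortest 25% replicates 2 and 3 exceeded replicate 1 by a median of 0.59 at MTZ+ 2 dpi and 0.64 at MTZ- 2 dpi. The part of these libraries and of length in the falls was not tested. Without MTZ+ 2 dpi replicate 2 or 3 the oxidative phosphorylation list held 8 or 7 falls and the proteasome list 15 or 24. Without MTZ+ 2 dpi replicate 1 the oxidative phosphorylation list held 61, and without MTZ+ 7 dpi replicates 1, 2 and 3 it held 6, 18 and 4, while limma-voom called 16. The proteasome list held 18, 20 and 14 without those 7 dpi libraries.

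The largest falls with a named function included antioxidant enzymes. *txn*, thioredoxin, had 91.2, 307 and 406 CPM at MTZ+ 7 dpi, against 1479.8, 6025 and 7946 CPM at MTZ+ 2 dpi (log2 change -4.26, SE 0.78, edgeR adjusted p = 0.00775). *prdx1*, a peroxiredoxin, had 251, 108 and 126 CPM at MTZ+ 7 dpi, against 1116, 5686 and 3744 CPM at MTZ+ 2 dpi (log2 change -4.44, SE 1.08, edgeR adjusted p = 0.0214). *gpx1a*, a glutathione peroxidase, had 50.6, 38.8 and 12.1 CPM at MTZ+ 7 dpi, against 161, 1080.0 and 627 CPM at MTZ+ 2 dpi. It fell by 4.2 (SE 0.78, edgeR adjusted p = 0.00781). In MTZ- larvae *txn* fell by 3.05 (edgeR adjusted p = 0.0351), and *prdx1* and *gpx1a* had log2 changes of -3.12 and -1.54 that did not pass (edgeR adjusted p = 0.088 and 0.213). With the block the changes of *gpx1a* differed by -2.61 (SE 0.52, edgeR adjusted p = 0.0236), and those of *txn* and *prdx1* by -1.26 and -1.30, which did not pass (edgeR adjusted p = 0.322 and 0.481). In each of these 3 genes replicate 1 was the lowest library of MTZ+ 2 dpi, as for the oxidative phosphorylation list. *rgs5b* (chr2:7014246-7017513, plus strand), a regulator of G protein signalling, was at 0 in all 3 MTZ+ 7 dpi libraries, against 38.9, 55.2 and 52.8 CPM at MTZ+ 2 dpi, at least 477-fold lower taking 3 counts per library as the floor (edgeR adjusted p = 0.0045). It was also at 0 in all 3 MTZ- 7 dpi libraries, against 0.0494, 1.98 and 1.71 CPM at MTZ- 2 dpi.

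The visual cycle and pigment genes that define RPE were high at both times, and none of them passed the test. *rpe65a*, the isomerase of the visual cycle, had 19711, 19559 and 10636 CPM at MTZ+ 7 dpi, against 3665, 7922 and 11542 CPM at MTZ+ 2 dpi. The highest 2 dpi library exceeded the lowest 7 dpi library, and the change of 1.11 on the log2 scale did not pass (SE 0.52, edgeR adjusted p = 0.216). In MTZ- larvae *rpe65a* had 13449 to 27846 CPM at 7 dpi and 11816 to 29670.1 CPM at 2 dpi. *rlbp1b*, which encodes the retinaldehyde carrier CRALBP, had 16690.4, 15105 and 4366 CPM at MTZ+ 7 dpi, against 7723, 18761 and 11227 CPM at MTZ+ 2 dpi. Over the 21 visual cycle genes tested edgeR called 0, with 3 higher and 1 lower at an unadjusted p under 0.05; DESeq2 called 1 in each direction and limma-voom 0. The melanin enzyme genes *tyrp1b* and *dct* had 12982 to 28258 and 4894 to 14935 CPM at MTZ+ 7 dpi, against 11159.6 to 40938 and 8578 to 11120.0 CPM at MTZ+ 2 dpi. Of 22 melanin genes edgeR called 0, with 4 higher and 2 lower at an unadjusted p under 0.05; DESeq2 called 2 higher and 1 lower and limma-voom 0.

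Several transport and junction genes rose. Of 62 genes tested 7 rose (11.3%, beside 2.77% of all genes), and the median log2 change was 1.03, or 0.85 with 3 genes that are at 0 in a group set to their bound. *slc6a6a*, the taurine transporter, had 93.3, 72.2 and 37.0 CPM at MTZ+ 7 dpi, against 2.07, 13.4 and 11.9 CPM at MTZ+ 2 dpi. It rose by 2.89 (SE 0.60, edgeR adjusted p = 0.0107), and in MTZ- larvae it had 79.3 to 162 CPM at 7 dpi and 46.9 to 109 CPM at 2 dpi. The difference of changes passed with the block (2.68, SE 0.46, edgeR adjusted p = 0.0147). *slc16a1a*, a monocarboxylate transporter that carries lactate, had 662, 943 and 586 CPM at MTZ+ 7 dpi, against 279, 132 and 204 CPM at MTZ+ 2 dpi (log2 change 1.83, SE 0.40, edgeR adjusted p = 0.0139). *slc7a8b*, an amino acid exchanger, had 299, 649 and 486 CPM at MTZ+ 7 dpi, against 82.4, 65.9 and 55.3 CPM at MTZ+ 2 dpi (edgeR adjusted p = 0.0337). *cgna*, the tight junction protein cingulin, had 7.06, 3.36 and 15.9 CPM at MTZ+ 7 dpi, against 0.972, 0.754 and 1.16 CPM at MTZ+ 2 dpi. It rose in MTZ+ larvae (log2 change 3.19, SE 0.69, edgeR adjusted p = 0.0127) and in MTZ- larvae (2.50, edgeR adjusted p = 0.0468). The count in this list ran from 1 to 5 when single ablated libraries were left out, and was 1 without MTZ+ 2 dpi replicate 2, 2 without MTZ+ 2 dpi replicate 3 or MTZ+ 7 dpi replicate 3, and 3 without MTZ+ 2 dpi replicate 1 or MTZ+ 7 dpi replicate 2.

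Glucose carrier genes rose too. *slc2a1b*, a GLUT1 carrier of glucose, had 156, 41.1 and 32.1 CPM at MTZ+ 7 dpi, against 9.12, 18.3 and 11.5 CPM at MTZ+ 2 dpi (log2 change 2.56, SE 0.74, edgeR adjusted p = 0.0458). Its paralog *slc2a1a* had 349, 9.37 and 36.9 CPM at MTZ+ 7 dpi, against 9.62, 7.94 and 7.10 CPM at MTZ+ 2 dpi, and replicate 1 carried most of its mean (edgeR adjusted p = 0.0437). Of 45 glycolysis and lactate genes 4 rose (8.89%, beside 2.77% of all genes), these 2, *slc16a1a* and the enolase *eno1b*. The 1 that fell (2.22%, beside 3.98% of all genes) was the phosphoglycerate mutase *pgam1a*. It had 16.3, 30.9 and 45.6 CPM at MTZ+ 7 dpi, against 92.4, 133 and 94.5 CPM at MTZ+ 2 dpi. In MTZ- larvae *slc2a1b*, *slc2a1a* and *pgam1a* had log2 changes of 1.96, 1.83 and -1.33. None of these passed (edgeR adjusted p = 0.125, 0.328 and 0.116). With the block the differences of changes did not pass either (edgeR adjusted p = 0.734, 0.132 and 0.760).

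**Figure D4:**
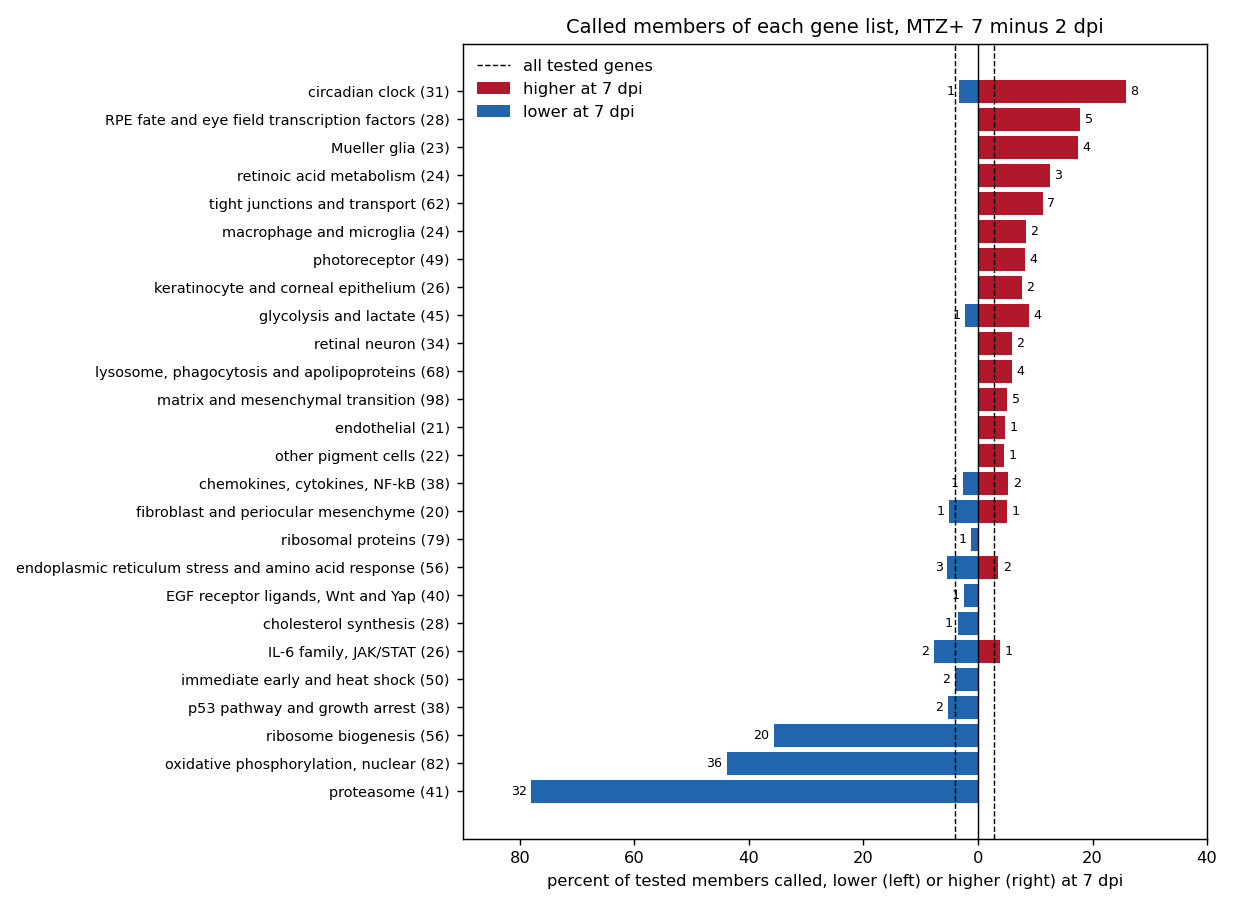
Percent of tested members (number in brackets) called lower (left) or higher (right) at MTZ+ 7 dpi than at MTZ+ 2 dpi, for each list with at least 1 call; numbers at the bars are genes and dashed lines mark the 2.77% and 3.98% of all genes. Proteasome (32), oxidative phosphorylation (36) and ribosome biogenesis (20) genes fell, and the circadian clock list has the highest share of rises plotted (8 of 31).

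Clock genes gave the highest share of rises among the pathway lists, and some rose in MTZ- larvae too. Of 31 genes tested 8 rose (25.8%, beside 2.77% of all genes). The melatonin enzyme gene *aanat1* was the 1 that fell (3.23%, beside 3.98% of all genes). Median log2 changes were 1.25 in MTZ+ and 1.35 in MTZ- larvae, where 3 rose, beside 1.15% of all genes there. *cry1ab*, a cryptochrome repressor of the clock, had 24.1, 7.36 and 29.5 CPM at MTZ+ 7 dpi, against 2.27, 1.15 and 0.835 CPM at MTZ+ 2 dpi (log2 change 3.83, SE 0.61, edgeR adjusted p = 0.00521). In MTZ- larvae it had 42.9, 20.2 and 51.3 CPM at 7 dpi, against 5.06, 4.09 and 10.2 CPM at 2 dpi (edgeR adjusted p = 0.0292). *cry2* rose by 2.39 in MTZ+ larvae (SE 0.48, edgeR adjusted p = 0.0093) and by 2.27 in MTZ- larvae (edgeR adjusted p = 0.0268). The clock-controlled repressor *bhlhe40* had 254, 214 and 469.7 CPM at MTZ+ 7 dpi, against 41, 63.2 and 95.6 CPM at MTZ+ 2 dpi (edgeR adjusted p = 0.0132), and the PAR bZIP gene *tefb* rose by 2.38 (SE 0.54, edgeR adjusted p = 0.0155). Summed CPM of the list were 2130 to 3030 at MTZ+ 7 dpi, against 946 to 1300 at MTZ+ 2 dpi, without overlap. The labels used here give no hour of collection, so its part in these values was not tested. The count of rises was 2 and 3 without MTZ+ 2 dpi replicates 2 and 3, and 4 and 3 without MTZ+ 7 dpi replicates 1 and 3, and limma-voom called 4.

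Some genes for transcription factors of the eye field and RPE fate rose. Of 28 tested edgeR called 5 higher (17.9%, beside 2.77% of all genes) and 0 lower, with 1 lower at an unadjusted p under 0.05, while DESeq2 called 10 higher and 1 lower and limma-voom 2 higher and 1 lower. The rises in edgeR included *six3b*, *zic2a*, *vsx1* and *sox2*, and the list's median log2 change was 1.18, beside -0.05 in MTZ- larvae. *six3b* (chr12:25509325-25511981, plus strand), an eye field homeobox gene, had 36.9, 32.5 and 42.8 CPM at MTZ+ 7 dpi, against 1.3, 3.24 and 1.44 CPM at MTZ+ 2 dpi (log2 change 4.23, SE 0.98, edgeR adjusted p = 0.0167). In MTZ- larvae *six3b* had 6.66 to 24.7 CPM at 7 dpi and 9.39 to 22.8 CPM at 2 dpi, and retinal neurons express this gene too. The difference of changes of *six3b* passed with the block (4.71, SE 0.78, edgeR adjusted p = 0.0134). In this list 6 of 28 genes passed that test, all positive, beside 1.94% of all genes. *zic2a* had 31.2, 6.46 and 0 CPM at MTZ+ 7 dpi, against 0.0499, 0 and 0.0928 CPM at MTZ+ 2 dpi, so its rise (edgeR adjusted p = 0.0204) came with overlapping groups. The count was 1 without MTZ+ 2 dpi replicate 2 or 3, 3 without its replicate 1 and 2 without MTZ+ 7 dpi replicate 1.

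Among the genes with the smallest p for a more positive change in MTZ+ larvae, *thrb*, *tcn2* and *gbp* had a lower mean at MTZ+ 2 dpi than at MTZ+ 7 dpi or in MTZ- larvae of either time. *thrb* (chr19:18056106-18199625, minus strand), a thyroid hormone receptor, had 12.5, 8.62 and 9.05 CPM at MTZ+ 7 dpi, against 0.648, 0.532 and 0.882 CPM at MTZ+ 2 dpi (log2 change 3.87, SE 0.54, edgeR adjusted p = 0.00439). In MTZ- larvae it had 5.90 to 19.1 CPM at 7 dpi and 6.44 to 13.9 CPM at 2 dpi. *tcn2*, a cobalamin transport protein, had 74.7, 133 and 86.8 CPM at MTZ+ 7 dpi, against 19.4, 21.5 and 17.1 CPM at MTZ+ 2 dpi, while MTZ- larvae had 21.2 to 87.0 CPM at 7 dpi and 78.5 to 111 CPM at 2 dpi. The gene listed as *gbp* had 62.3, 51.9 and 63.3 CPM at MTZ+ 7 dpi, against 10.6, 21.9 and 12.9 CPM at MTZ+ 2 dpi. With the block the changes differed by 3.46, 3.31 and 2.54 for *thrb*, *tcn2* and *gbp* (edgeR adjusted p = 0.022, 0.0071 and 0.00841). *sh3bgr* differed by 4.24 with the block (edgeR adjusted p = 0.0124), and for it the called change was a fall of 2.69 in MTZ- larvae (edgeR adjusted p = 0.0258).

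Retinoid genes included 3 rises among 24 (12.5%, beside 2.77% of all genes). *rxrga*, a retinoid X receptor, had 25.5, 9.97 and 23.5 CPM at MTZ+ 7 dpi, against 6.33, 3.99 and 1.62 CPM at MTZ+ 2 dpi (log2 change 2.3, SE 0.48, edgeR adjusted p = 0.011). *cyp1b1*, a cytochrome that can make retinoic acid, had 0.877, 0.802 and 4.37 CPM at MTZ+ 7 dpi, against 0.0748, 0.0887 and 0.0928 CPM at MTZ+ 2 dpi (edgeR adjusted p = 0.00946). The aldehyde dehydrogenase gene *aldh1a3* had 3.89, 9.57 and 0.0868 CPM at MTZ+ 7 dpi and was at 0 in all 3 MTZ+ 2 dpi libraries (edgeR adjusted p = 0.0353). Matrix genes included 5 rises among 98 (5.1%, beside 2.77% of all genes), *vim*, *zeb2a*, *spon1a*, *loxl1* and *thbs1b*. The intermediate filament gene *vim* had 15.9, 59.2 and 15 CPM at MTZ+ 7 dpi, against 2.57, 2.79 and 2.60 CPM at MTZ+ 2 dpi (log2 change 3.50, SE 0.67, edgeR adjusted p = 0.00825). The lysyl oxidase gene *loxl1* had 399, 751 and 298 CPM at MTZ+ 7 dpi, against 140.2, 145 and 216 CPM at MTZ+ 2 dpi (edgeR adjusted p = 0.0443).

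Of 68 lysosome, phagocytosis and apolipoprotein genes 4 rose (5.88%, beside 2.77% of all genes), *abca1b*, *apoeb*, *mertka* and the ceramidase gene *asah1b*. *mertka*, the receptor with which RPE and macrophages engulf debris, had 29.7, 19.7 and 48.2 CPM at MTZ+ 7 dpi, against 5.36, 9.31 and 8.82 CPM at MTZ+ 2 dpi (log2 change 2.06, SE 0.59, edgeR adjusted p = 0.0456). *abca1b*, a cholesterol exporter, had 7.06, 42 and 30.9 CPM at MTZ+ 7 dpi, against 3.32, 1.69 and 5.48 CPM at MTZ+ 2 dpi (edgeR adjusted p = 0.0251). *apoeb*, an apolipoprotein E that microglia express strongly, had 648, 1052 and 7148 CPM at MTZ+ 7 dpi, against 88.9, 83.5 and 75.0 CPM at MTZ+ 2 dpi, and 2201, 3281 and 2277 CPM at MTZ+ 4 dpi (log2 change 5.16, SE 1.40, edgeR adjusted p = 0.0361). Without MTZ+ 7 dpi replicate 3 the *apoeb* change was 3.38 and did not pass (edgeR adjusted p = 0.145).

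Marker sums of several other cell types were higher at MTZ+ 7 dpi than at MTZ+ 2 dpi. Summed CPM of 26 macrophage and microglia markers were 796, 1080 and 8530 at MTZ+ 7 dpi, against 103, 132 and 94.1 at MTZ+ 2 dpi. Of 24 tested 2 rose (8.33%, beside 2.77% of all genes), *apoeb* and the myeloid factor *spi1a*. Leaving *apoeb* out, the other 23 tested markers summed to 148, 30.1 and 1380 CPM at MTZ+ 7 dpi, against 14, 48.7 and 19 CPM at MTZ+ 2 dpi, and those groups overlapped. At MTZ+ 7 dpi 2 of the 26 markers were at 0 in every library, and at MTZ+ 2 dpi 4 were. The macrophage list was highest in the replicate 3 library of 7 dpi, whose RPE marker sum was the lowest of the 6. Müller glia markers, of which 4 of 23 rose (17.4%, beside 2.77% of all genes), summed to 5270, 3470 and 5770 CPM at MTZ+ 7 dpi, against 2410, 1640 and 1200 CPM at MTZ+ 2 dpi. In MTZ- larvae those sums were 8740, 5790 and 6300 at 7 dpi and 7030, 7060 and 4300 at 2 dpi. All of these lay above the MTZ+ 2 dpi libraries. *glula*, glutamine synthetase, had 3942, 1704 and 3049 CPM at MTZ+ 7 dpi, against 930.4, 229 and 308 CPM at MTZ+ 2 dpi, and 1079 to 7985 CPM in the MTZ- libraries of 7 and 2 dpi. Retinal neuron markers summed to 2640, 3260 and 1590 CPM at MTZ+ 7 dpi, against 367, 1110 and 896 CPM at MTZ+ 2 dpi, and 2 of 34 rose (5.88%, beside 2.77% of all genes). In MTZ- larvae they summed to 2450, 3540 and 1860 CPM at 7 dpi and 1060, 1920 and 2040 CPM at 2 dpi. Photoreceptor markers, of which 4 of 49 rose (8.16%, beside 2.77% of all genes), summed to 13300, 21300 and 8590 CPM at MTZ+ 7 dpi, against 2160, 13300 and 22400 CPM at MTZ+ 2 dpi, with overlap. At an unadjusted p under 0.05 in edgeR, 18 photoreceptor markers were higher and 1 lower. The photoreceptor rises called were *rs1a*, *rom1b*, *cngb3.1* and *prph2a*. *rs1a*, the adhesion protein retinoschisin, had 12.7, 22.2 and 116 CPM at MTZ+ 7 dpi, against 0.773, 0.0444 and 1.21 CPM at MTZ+ 2 dpi (log2 change 6.21, SE 1.52, edgeR adjusted p = 0.0221). *snap25b*, a synaptic fusion protein, had 40.7, 40.5 and 75.3 CPM at MTZ+ 7 dpi, against 4.61, 2.84 and 1.95 CPM at MTZ+ 2 dpi (edgeR adjusted p = 0.016). Median log2 changes were 4.82 for macrophage and microglia, 2.53 for photoreceptor, 2.19 for retinal neuron and 1.12 for Müller glia markers. Over all genes the median was 0.11. With genes at 0 in a group set to their bound, the list medians were 4.6, 2.55, 2.07 and 1.12. In MTZ- larvae they were 1.02, 0.82, 1.02 and -0.38. Whether more cells of other types entered the sort or RNA per cell changed cannot be told apart in bulk libraries. The part of these cells in the rises of *vsx1*, *vim*, *apoeb* and other genes shared with these lists was not tested.

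**Figure D5:**
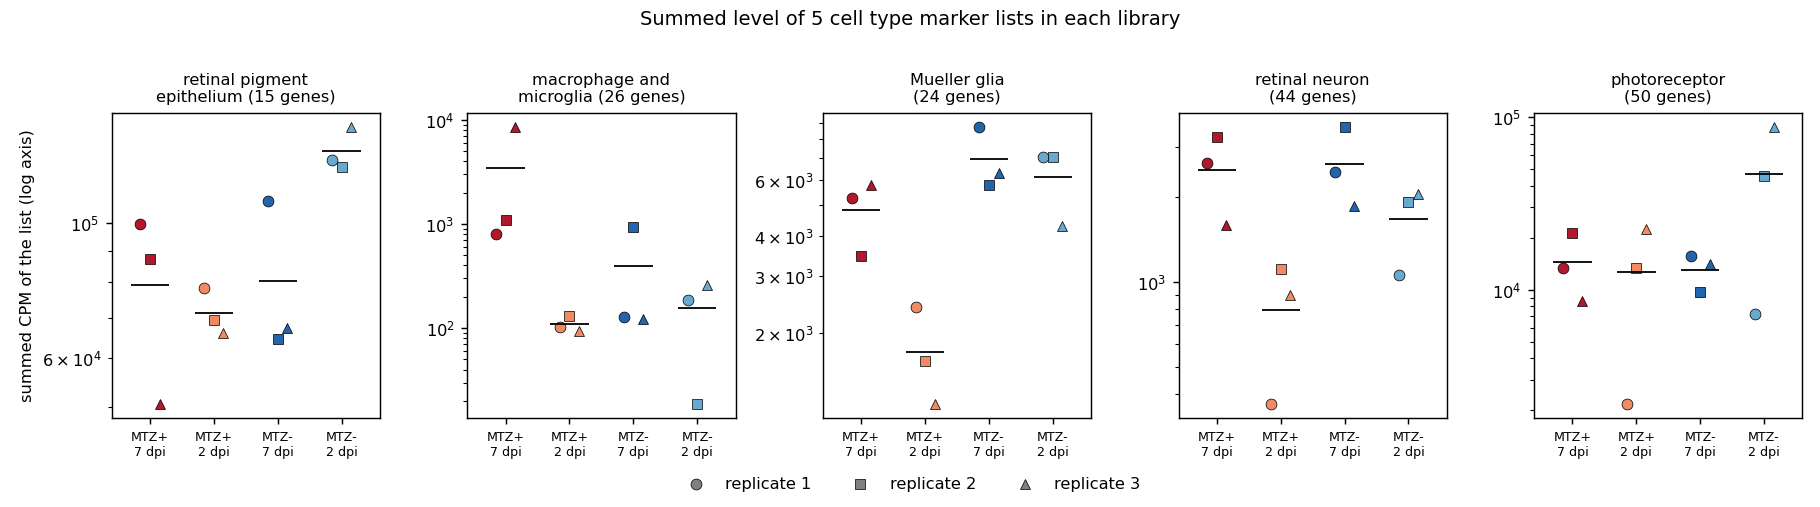
Summed CPM (log axis) of 5 cell type marker lists in each library of the 4 groups at 7 and 2 dpi; symbols are replicates and bars are group means. RPE markers overlap between MTZ+ 7 and 2 dpi, while macrophage, Müller glia and retinal neuron sums are higher in all 3 MTZ+ 7 dpi libraries than in the MTZ+ 2 dpi libraries.

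The largest rises by fold included neurotransmitter receptor genes. *gabrr1*, a GABA receptor subunit of retinal bipolar cells, had 1.21, 5.71 and 38.6 CPM at MTZ+ 7 dpi, against 0, 0.177 and 0.0464 CPM at MTZ+ 2 dpi (log2 change 7.72, SE 1.97, edgeR adjusted p = 0.0276). *glra3*, a glycine receptor subunit, had 1.40, 1.50 and 13.7 CPM at MTZ+ 7 dpi and was at 0 in all 3 MTZ+ 2 dpi libraries, at least 47.8-fold higher (edgeR adjusted p = 0.0465). In both genes replicate 3 of MTZ+ 7 dpi was the highest of the 6 libraries. In MTZ- larvae *gabrr1* had 1.26, 9.78 and 1.18 CPM at 7 dpi, against 0.0247, 0.225 and 0.116 CPM at 2 dpi. The MTZ- log2 changes of *gabrr1* and *glra3* were 5.09 and 3.55, and did not pass (edgeR adjusted p = 0.102 and 0.302). With the block their differences of changes did not pass either (edgeR adjusted p = 0.674 and 0.204). *krt97*, a keratin gene of surface epithelium, had 14.6, 125 and 411 CPM at MTZ+ 7 dpi, against 0.972, 4.08 and 4.69 CPM at MTZ+ 2 dpi (log2 change 5.83, SE 1.16, edgeR adjusted p = 0.00912). Its coordinates overlap those of *krt96*, a keratin gene on the same strand that also rose, so how reads were split between them is uncertain. *gpr182*, an endothelial receptor, had 87.5, 46.6 and 0.984 CPM at MTZ+ 7 dpi, against 0.125, 1.46 and 0.186 CPM at MTZ+ 2 dpi, and overlapped (log2 change 6.28, SE 1.37, edgeR adjusted p = 0.0132). Among lens, lymphocyte, neutrophil, erythrocyte and muscle markers edgeR called 0, with 4, 1, 2, 0 and 4 genes at an unadjusted p under 0.05; DESeq2 called 3, 0, 2, 0 and 3 and limma-voom 0.

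Cell division genes overlapped between the times. Summed CPM of 46 DNA replication genes were 1310, 294 and 349 at MTZ+ 7 dpi, against 741, 637 and 605 at MTZ+ 2 dpi, and those of 44 mitosis genes were 1200, 62.3 and 43.7, against 352, 232 and 124. In both lists replicate 1 of MTZ+ 7 dpi was the highest of the 6 libraries and the other 2 were the lowest. Among the 45 replication genes tested edgeR called 0, with 1 lower at an unadjusted p under 0.05; DESeq2 called 1 lower and limma-voom 0. Among the 44 mitosis genes edgeR, DESeq2 and limma-voom called 0, with 1 lower at an unadjusted p under 0.05 in edgeR. In MTZ- larvae mitosis sums were 46.1 to 100 at 7 dpi, against 440 to 1660 at 2 dpi. There 2 of these genes fell, *aurkb* and *mad2l1*, beside 2.71% of all genes. At an unadjusted p under 0.05 in edgeR, 20 mitosis and 14 replication genes were lower in MTZ- larvae. The changes of MTZ+ and MTZ- larvae differed at that threshold, without the block, for 17 of 44 mitosis and 4 of 45 replication genes, beside 10.3% of all genes. None of these differences was negative. With the block 3 and 1 passed, all positive. Replicate 1 carried most of the MTZ+ 7 dpi sums of both lists. *mki67* had 100, 0 and 0 CPM at MTZ+ 7 dpi, against 11.5, 2.62 and 3.85 CPM at MTZ+ 2 dpi. These lists were not counted without that library, so its part in the differences was not tested.

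Across all genes the changes of ablated and undisturbed larvae overlapped in part. In MTZ- larvae 232 genes rose and 544 fell. Of the 1356 genes called in MTZ+ larvae 375 were called in the same direction in MTZ- larvae, 27.7% of the MTZ+ calls and 48.3% of the 776 MTZ- calls, and 0 were called in opposite directions. These shared calls were 68 rises and 307 falls, or 12.2% of the MTZ+ rises and 38.4% of the MTZ+ falls. Called or not, the MTZ- change had the same sign for 88.7% of the MTZ+ rises and 92.9% of the MTZ+ falls. These genes were picked for a large MTZ+ change, and no share of equal sign over all genes was computed. Across all genes tested the MTZ+ and MTZ- log2 changes had a Pearson r of 0.325. The MTZ- count itself ran from 0 to 1369 when single MTZ- libraries were left out. Of the 1356 calls 214 were also called in the blocked test of the difference, while the test without the block called 0 genes.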

How the data were processed

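Bulk RNA-seq of sorted eGFP-positive zebrafish cells was read from tables of 34326 genes. The deposited tables hold total counts per gene and TPM (scaled by transcript length), and genome build GRCz10 is named in the submitters' processing notes. No aligner or counting setting is given in the sources used here, and per the labels' protocols the library kit (SMART-Seq v4 with Nextera XT) was used, which does not mark strand. All 36 value columns were mapped to samples by title, and groups follow the treatment labels. For replicate 1 of 4 dpi, title and label conflict: the MTZ- library is titled Mtz positive, and the title of the MTZ+ library names only a well. *il11b* had 0.228 CPM in the library labelled MTZ- and 40.1 CPM in the one labelled MTZ+. Whether these 2 libraries were exchanged was not tested. Levels are TMM-scaled CPM computed here from the deposited counts; the deposited TPM served for relative exon length and one alternative.

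Counts were tested with edgeR 4.0.16 (R 4.3.3), robust quasi-likelihood, 6 group means over all 18 libraries, genes kept by filterByExpr, with Benjamini-Hochberg adjustment over 20093 genes and a threshold of 0.05. Each SE beside a log2 change is its absolute value divided by the square root of the quasi-likelihood F statistic. It is not a separately fitted standard error. DESeq2 1.42.0, limma-voom (limma 3.58.1), another scaling (RLE), other filters, a replicate block, smaller sets of libraries and leaving out each library were alternatives. On simulated data for MTZ+ 7 minus 2 dpi (20093 genes), 12%, 46%, 64% and 72% of 50 genes changed by 4-, 8-, 16- and 32-fold were recovered, with 2 false calls. Each gene was drawn independently around a common mean, without pairs, libraries that stand apart or a length effect. False calls from such features of the data were therefore not measured. Total counts were 21870245 to 60377642 per library, and edgeR's common coefficient of biological variation was 79.9%.

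MTZ+ and MTZ- libraries with the same number deviated together within each time (r 0.593, 0.235 and 0.369 at 2 dpi, 0.42, 0.418 and 0.269 at 4 dpi, 0.449, 0.187 and 0.203 at 7 dpi), so these 9 pairs formed the block in the test of the difference. Libraries with other numbers had r of -0.44 to 0.183 at 2 dpi, -0.316 to -0.0578 at 4 dpi and -0.259 to 0.0644 at 7 dpi. Genes named are the 15 largest rises and falls whose groups do not overlap and with a group mean of at least 5 CPM, up to 4 called members of each list, the 5 smallest p-values in each direction of the difference, and *rpe65a*, or are spelled out from small counts. Not every gene that this rule gives is described. Gene lists and their members were chosen with earlier results of these data known. One item that this rule gives is not reported here.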

Additional observations from a re-analysis of the deposited data

How the results depend on the processing

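The count of genes called between MTZ+ 7 and 2 dpi was 1356. It was 3119 in DESeq2, 3 in the 6 ablated libraries alone and 0 in those libraries with a replicate block (2804 at an unadjusted p under 0.05), and 443 to 1368 when single libraries were left out. Same-numbered libraries of MTZ+ 7 and 2 dpi had r of 0.186, 0.153 and -0.0102, and other numbers had -0.231 to 0.14. A block of replicate number over all 18 libraries, joining the same number across times and treatments, called 1715. For the difference between MTZ+ and MTZ- changes the count of 0 became 290 in DESeq2 and 862 with the replicate block, and was 0 to 2 when single libraries were left out; the blocked count was 122 to 757 without 1 pair. The MTZ- count of 776 was 2569 in DESeq2, 430 in limma-voom and 0 to 1369 with single libraries left out. Direction reversed for 3 genes near no change. *dct* (0.01) became -0.016 in RLE scaling and DESeq2, -0.040 without a filter, -0.12 in limma-voom, -0.022 in the 6 libraries, -0.041 and -0.16 with the replicate block in 18 and 6 libraries, and ran from -0.40 to 0.35 with single libraries left out. *tyrp1b* (-0.20) then ran from -0.59 to 0.63 and *rlbp1b* (-0.06) from -0.36 to 0.36. Of 106 named genes, 46 to 72 kept their direction and their side of the threshold in fits that left out single libraries. Causes were not tested. The median of all genes was 0.11 here and -0.02 in limma-voom. With 3 libraries a group, 4-fold changes were mostly not detected in the simulation.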
